A study of Mus musculus with 4 samples.

Results

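The Myc family of transcription factors and its antagonists were followed in primary cultures of mouse spermatogonia, the germ cells of the testis that include its stem cells. The 8 genes were taken from the count table by gene symbol: 3 activators (Myc, Mycn and Mycl) and 5 repressors (Mnt, Mxd1, Mxd3, Mxd4 and Mxi1), out of 55421 genes in all. Each symbol matched 1 row, and all 8 genes were among the 20232 genes that passed the filter on low counts and were tested. The cultures (spermatogonial stem cell or SSC cultures) were established from neonatal testes of CD1 mice and grown on a layer of irradiated mouse embryonic fibroblasts, and the libraries hold RNA from the germ cells and the feeders. For all samples the labels give a culture supplemented with N2, basic fibroblast growth factor (bFGF) and glial cell line-derived neurotrophic factor (GDNF), both at 10 ng/ml. Veh cultures, the control, were kept in complete SSC medium. NRRA cultures received a nutrient restriction medium, in which a balanced salt solution replaced most of the complete medium, together with retinoic acid (RA). By the study's recipe the growth factors would be diluted with the rest of the medium, which the labels do not show. The effects of the restriction, of any such dilution and of RA cannot be told apart between these groups. Each group had 2 libraries. The study describes its sequencing replicates as biologically independent, no culture or animal is named for any library, and p-values rest on the spread between these 2 libraries.

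MYC, MYCN and MYCL are basic helix-loop-helix leucine zipper proteins that dimerise with MAX, bind E-box sequences (CACGTG) and activate genes for growth, ribosome production and metabolism. The MXD proteins, MXI1 and MNT also dimerise with MAX and bind the same E-boxes, but recruit the SIN3 corepressor with its histone deacetylases. The level of activators against that of repressors is a long-standing way to describe the change from proliferation to differentiation, in which MXD genes are typically expressed as cells leave the cycle. In spermatogonial stem cells Mycn is known as a gene that responds to GDNF signalling and takes part in self-renewal. MAX also pairs with MGA in a Polycomb complex, PRC1.6, that keeps meiotic genes silent in cells that are not in meiosis.

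Several promoters of the network hold the E-box that its own proteins bind. RefSeq promoters (GRCm38.p6, 250 bases before to 50 bases after the start of transcription) were matched by symbol for 7 of the 8 members, all but Myc. The sequence CACGTG, which reads the same on both strands, was found in the promoters of Mnt and Mxd4, and in none of those listed for Mycn, Mycl, Mxd1, Mxd3 or Mxi1. Among the partners it was found for Max, Mlx and 1 of the 2 promoters of Mlxipl, and not for Mga or Mlxip. Of all 32851 promoters of this length in the same table, 7.15% held it. Counted by gene, 8.09% of all 27025 genes had it in a listed promoter, and 11.2% of the 13037 tested genes with an entry. The windows below carry the E-box in capitals with 27 bases on either side and are shown because Mxd4, Max and Mlxipl changed in level while Mnt did not pass the test. A match is a description of these letters and not of a bound site.
Mxd4, chr5:34187897-34187956, minus strand: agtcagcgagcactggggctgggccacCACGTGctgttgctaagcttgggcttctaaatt
Mnt, chr11:74830774-74830833, plus strand: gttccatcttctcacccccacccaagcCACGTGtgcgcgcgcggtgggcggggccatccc
Max, chr12:76962219-76962278, minus strand: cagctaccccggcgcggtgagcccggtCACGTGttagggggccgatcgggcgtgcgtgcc
Mlxipl, chr5:135089765-135089824, plus strand: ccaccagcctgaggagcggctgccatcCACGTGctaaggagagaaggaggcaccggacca
The E-box began 219 bases before the start of Mxd4, 123 before that of Mnt and 98 before that of Mlxipl. In Max it began 3 bases before the start and so spans it.

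The libraries held 28022265 to 31604769 counts, and 3 counts corresponded to 0.0921 to 0.111 CPM, the unit of counts scaled to a common library size with the TMM method of edgeR. Replicates correlated across genes at r = 0.993 in Veh and 0.994 in NRRA. Germ cell markers such as Ddx4 were present in every library, with a summed level of 1841 to 1908 CPM in Veh and 1916 to 1918 CPM in NRRA, and of the 7 markers 4 were called lower (Tdrd1 most, at -0.45) and 2 higher. The 4 genes used as a check of the treatment, Stra8, Kit, Cyp26a1 and Rec8, all rose in NRRA, from a summed 42.4 to 43.7 CPM to 2781 to 2785 CPM. All 8 markers of undifferentiated spermatogonia fell, from 1605 to 1609 CPM to 306 to 312 CPM. Fibroblast feeder markers were abundant, and their sum, of which Fn1 made up the largest part (means of 6115 CPM in Veh and 4357 CPM in NRRA), went from 10740 to 10850 CPM in Veh to 8112 to 8341 CPM in NRRA, with 12 of 15 called lower and 2 called higher, where 28.4% of all genes tested were called lower and 27.9% higher. The median log2 fold change of these 15 markers was -0.20. In these bulk samples fewer cells of a type and less RNA per cell cannot be told apart. Sertoli cell markers summed to 34.3 to 37.8 CPM in Veh and 16.1 to 16.6 CPM in NRRA, nearly all of it Sox9 and Wt1, with Amh, a defining marker, at 1 to 3 counts in each library. Leydig markers summed to 7.52 to 9.58 CPM, nearly all of it Star, and macrophage markers to 26.9 to 35.4 CPM, mostly from Csf1r (means of 20.8 CPM in Veh and 18.9 CPM in NRRA) and Cd68 (9.02 and 4.98 CPM, called lower), with Ptprc (0.368 and 0.269 CPM) and C1qa (0.210 and 0.240 CPM) near 0. The part of any of these cell types in the results below was not tested.

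Of the 3 activators 2 fell in NRRA, and of the 5 repressors 3 rose. Mycn fell 7.51-fold and Myc 1.79-fold, whereas Mxd1 rose 2.26-fold, Mxd4 1.51-fold and Mxi1 1.18-fold. No activator was called higher and no repressor was called lower. Mycl, Mnt and Mxd3 did not pass the test. Among all genes tested 56.4% were called at an adjusted p under 0.05 by edgeR's quasi-likelihood test with Benjamini-Hochberg adjustment, 27.9% higher and 28.4% lower, so that a call alone was common. The counts of 0 were also 0 for activators at an unadjusted p under 0.05 and in DESeq2. For repressors called lower, DESeq2 also gave 0, while 1 gene (Mxd3) had an unadjusted p under 0.05 and was called without Veh 1. Against a fold change of at least 1.5, which 14.5% of all genes passed, Mycn, Myc and Mxd1 were still called.

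Mycn, the family member best known from neural and stem cell populations, lies on chromosome 12 (12936093 to 12941914, minus strand, GRCm38). It was counted at 104 CPM in Veh 1, 100.5 CPM in Veh 2, 13.4 CPM in NRRA 1 and 13.8 CPM in NRRA 2, from 2811, 2990, 437 and 414 reads. The groups were far apart and the replicates within each were close, with means of 102 ± 2.23 CPM for Veh and 13.6 ± 0.236 CPM for NRRA (SD, n = 2). Mycn had a log2 fold change of -2.91 (SE 0.0565, adjusted p = 4.95e-24). Of the 20232 genes tested, 195 had a lower log2 fold change than Mycn.

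Myc, the founding member and a driver of growth in most proliferating cells, lies on chromosome 15 (61985391 to 61990374, plus strand). Its level was 13.1 CPM in Veh 1, 16.0 CPM in Veh 2, 8.14 CPM in NRRA 1 and 8.10 CPM in NRRA 2. Both Veh libraries were above both NRRA libraries, although the Veh libraries differed more from each other (14.5 ± 2.06 CPM) than the NRRA libraries did (8.12 ± 0.0225 CPM). The log2 fold change was -0.84 (SE 0.11, adjusted p = 3.86e-07). The 95% interval of Mycn (-3.03 to -2.79) lay wholly below that of Myc (-1.07 to -0.61). Fibroblasts also express Myc. Of the 15 feeder markers given above 12 were called lower and 2 higher, with a median log2 fold change of -0.20. The part of the feeders in the value of Myc was not tested.

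Mycl, the third activator, lies on chromosome 4 (122995652 to 123002485, plus strand) and was the member with the least difference. It stood at 12.2 and 12.0 CPM in Veh and at 11.7 and 12.1 CPM in NRRA, and the groups overlapped. The log2 fold change was -0.02 with a 95% interval of -0.23 to 0.18 (adjusted p = 0.866). A change within that interval was not detectable with these libraries.

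Mxd1, first described as MAD1 and linked to terminal differentiation, lies on chromosome 6 (86647042 to 86669161, minus strand) and rose most among the repressors. It was counted at 8.26 and 9.48 CPM in Veh and at 19.8 and 20.4 CPM in NRRA, so that the groups were well separated. Its log2 fold change was 1.18 (SE 0.0968, adjusted p = 6.54e-11), and 1042 of the genes tested had a higher one.

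Mxd4, also called MAD4, lies on chromosome 5 (34173883 to 34187720, minus strand) and had the highest CPM of the repressors in NRRA, while in Veh it overlapped with Mnt. It stood at 68.6 CPM in Veh 1, 69.4 CPM in Veh 2, 106 CPM in NRRA 1 and 103 CPM in NRRA 2. The Veh libraries were nearly equal (69.0 ± 0.581 CPM) and both lay below the NRRA libraries (104 ± 2.39 CPM). Its log2 fold change was 0.60 (SE 0.0408, adjusted p = 1.69e-12). This is the gene whose E-box is shown first above.

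Mxi1, a repressor found as an interactor of MAX, lies on chromosome 19 (53310518 to 53375810, plus strand) and rose less. Its 33.0 and 34.9 CPM in Veh and 40.2 and 40.3 CPM in NRRA did not overlap, and the log2 fold change was 0.24 (SE 0.0592, adjusted p = 0.000932). The promoter table lists 3 starts for Mxi1, which counts per gene do not separate.

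Mnt and Mxd3 had smaller differences that the libraries did not settle. Mnt, the repressor expressed most broadly, lies on chromosome 11 (74830920 to 74845725, plus strand) and stood at 70.6 and 66.3 CPM in Veh and at 75.6 and 71.3 CPM in NRRA. The lower NRRA library was just above the higher Veh library. The log2 fold change was 0.10 (SE 0.0468, adjusted p = 0.0627), and with 1 library left out it ran from 0.06 to 0.15. Some of the alternatives given below called Mnt higher. Mxd3, which unlike the other MXD genes is known for expression in cells in S phase, lies on chromosome 13 (55325168 to 55329823, minus strand). It stood at 20.4 and 23.2 CPM in Veh and at 19.3 and 19.6 CPM in NRRA, which were lower without overlap by a margin smaller than the difference between the Veh libraries. The log2 fold change was -0.17 (SE 0.0803, adjusted p = 0.0782). With 1 library left out it ran from -0.26 to -0.07, and with library size only it was -0.0785. Groups without overlap are common in these data, at 76.7% of all genes tested.

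**Figure D1:**
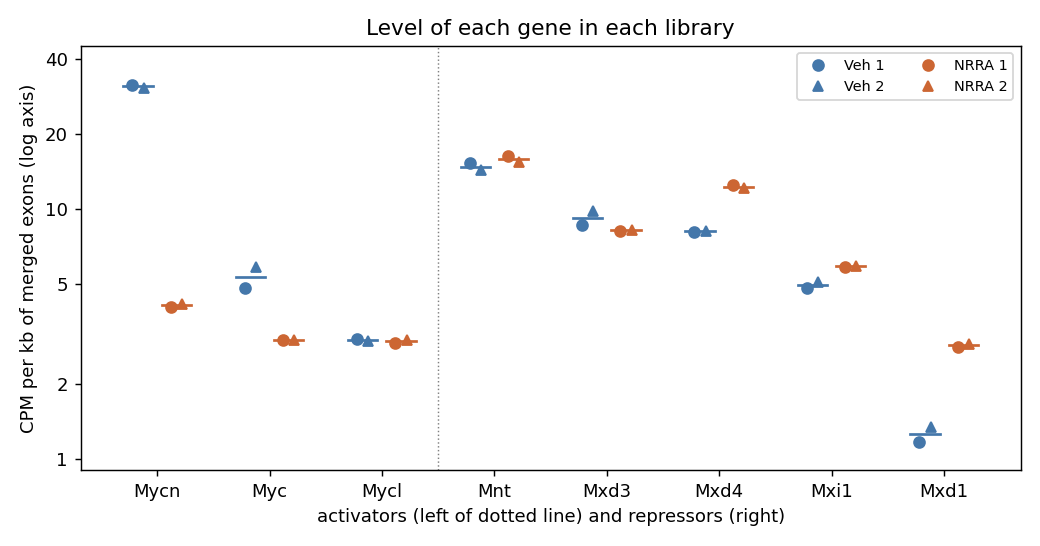
Level of the 3 activators and 5 repressors in each library, in CPM per kilobase of merged exons on a log axis. Points are single libraries (circles replicate 1, triangles replicate 2) and lines the group means. Mycn drops from 31.0 to 4.12, Mxd4 and Mxd1 rise, and the levels of Mycl, Mnt and Mxd3, which did not pass the test, lie close together in the groups.

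Levels of different genes were compared per kilobase of merged exons, since longer transcripts give more reads. In Veh, Mycn led with 31.0 ± 0.677 CPM per kb (SD, n = 2), followed by Mnt (14.8), Mxd3 (9.21), Mxd4 (8.13), Myc (5.35), Mxi1 (4.97), Mycl (2.997) and Mxd1 (1.254). All neighbours in that order were separate in both libraries, other than Myc and Mxi1. In NRRA the 4 highest members were all repressors: Mnt (15.9), Mxd4 (12.3), Mxd3 (8.21) and Mxi1 (5.90). Mycn came next at 4.12 ± 0.0717 CPM per kb, and Myc (2.99), Mycl (2.95) and Mxd1 (2.85) followed, of which Myc and Mycl did not differ beyond their spread. The order depends on the length used, since Mxd4, for example, has 8483 bases of merged exons and a longest transcript of 4627 bases. Per kilobase of the longest transcript, Mxd4 and Mnt were both at 14.9 in Veh, and in NRRA Mxd4 (22.6) stood above Mnt (16.0) and Mxd1 (4.32) above Myc (3.47) and Mycl (3.40). Mycn was highest in Veh by either length (38.2 by the longest transcript).

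The summed level of the activators was close to that of the repressors in Veh and well below it in NRRA. The activators summed to 39.3 and 39.4 CPM per kb in Veh and to 9.96 and 10.2 in NRRA. The repressors summed to 38.0 and 38.8 in Veh and to 45.7 and 44.6 in NRRA. The ratio of activators to repressors was 1.04 in Veh 1 and 1.02 in Veh 2, against 0.218 in NRRA 1 and 0.228 in NRRA 2, a 4.60-fold difference. On the log2 scale the mean was 0.04 ± 0.020 for Veh and -2.17 ± 0.046 for NRRA (SD, n = 2). In an exact two-sided permutation test over the 4 libraries p was 0.333, the smallest that this design allows. The ratio is one of RNA levels per length and says nothing of protein.

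**Figure D2:**
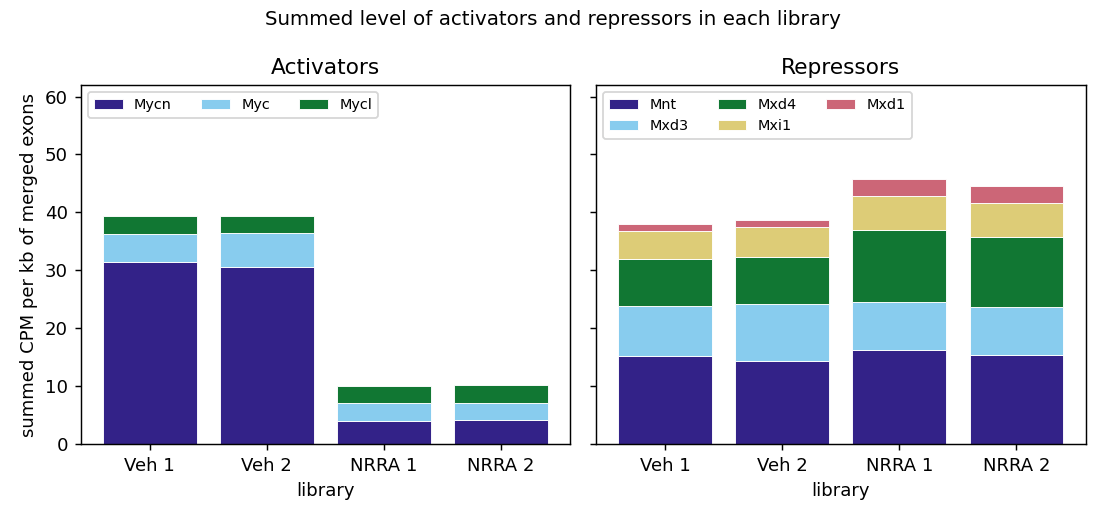
Summed level of the activators (left) and of the repressors (right) in each library, in CPM per kilobase of merged exons, with 1 colour per gene. The activator bars fall from 39.3 and 39.4 to 9.96 and 10.2, mostly in the Mycn segment, while the repressor bars rise from 38.0 and 38.8 to 45.7 and 44.6.

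The make-up of both sums changed. Mycn made up 80.0% and 77.5% of the activator sum in Veh but 40.9% and 41.1% in NRRA, where Myc (30.1% and 29.4%) and Mycl (29.1% and 29.6%) held similar shares. Among the repressors, the share of Mxd4 went from 21.3% and 21.1% to 27.4% and 27.2%, and that of Mxd1 from 3.08% and 3.46% to 6.14% and 6.48%. Mnt held 40.2% and 37.0% in Veh and 35.8% and 34.6% in NRRA, and Mxd3 went from 22.7% and 25.3% to 17.9% and 18.5%. These shares of a sum depend on one another.

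Max, the shared dimerisation partner of the Myc and MXD proteins, fell 1.51-fold. It was counted at 74.0 and 77.1 CPM in Veh and at 50.1 and 50.3 CPM in NRRA, with a log2 fold change of -0.59 (SE 0.0469, adjusted p = 3.42e-11). Per kilobase of merged exons, the 8 members together summed to 3.75 and 3.64 times the level of Max in Veh and to 3.997 and 3.91 times in NRRA. These multiples depend on the length used. By the longest transcript they were 2.573 and 2.508 in Veh and 2.89 and 2.835 in NRRA. Mga, the large MAX partner of PRC1.6, was well expressed (372 and 376 CPM in Veh, 366 and 370 CPM in NRRA), and its log2 fold change was -0.02 with a 95% interval of -0.07 to 0.03 (adjusted p = 0.487).

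The parallel arm of the network, in which MLX pairs with the glucose-responsive factors MLXIP (MondoA) and MLXIPL (ChREBP), moved the other way for its sensors. Mlxipl rose from 42.0 and 44.0 CPM to 71.5 and 79.8 CPM (log2 fold change 0.81, SE 0.0543, adjusted p = 1.06e-12). Mlxip rose from 149 and 141 CPM to 170 and 173 CPM (log2 fold change 0.25, SE 0.0335, adjusted p = 5.83e-07). Mlx itself stood at 37.6 and 31.3 CPM in Veh and at 34.3 and 33.5 CPM in NRRA, and its groups overlapped (adjusted p = 0.854). For Mlx, 19.3% of the exonic bases overlap Psmc3ip on the other strand.

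Of the 3 Myc-related genes, Bmyc, a short Myc relative without the DNA-binding domain, had 7.52 and 5.54 CPM in Veh and 9.73 and 9.60 CPM in NRRA and was called higher (log2 fold change 0.57, adjusted p = 0.000659). The strand setting of the counting is not given in the sources used here, and 62.8% of the exonic bases of Bmyc overlap A230005M16Rik on the opposite strand, so this value is uncertain. Mycbp, a MYC-binding protein gene, stood at 63.5 to 65.4 CPM in the 4 libraries (log2 fold change 0.01, adjusted p = 0.922). Mycs, an intronless Myc relative on the X chromosome, had 0 counts in all 4 libraries, which allows a level of up to 0.111 CPM in the shallowest library.

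**Figure D3:**
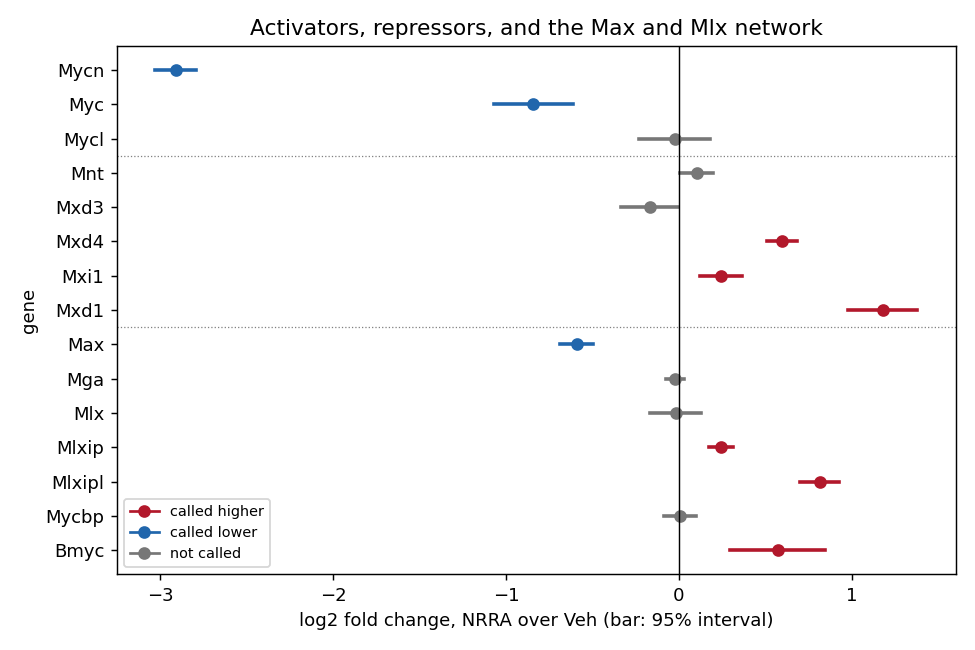
Log2 fold change of NRRA over Veh for the activators (top), the repressors (middle) and the Max and Mlx network with the Myc-related genes (bottom). Points are edgeR estimates, bars 95% intervals, and colours the call at an adjusted p under 0.05. Mycn stands far to the left at -2.91, with Myc at -0.84 and Max at -0.59, and Mxd1 (1.18), Mlxipl (0.81) and Mxd4 (0.60) lie furthest to the right.

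Genes known from many cell types to be activated by MYC proteins were lower in NRRA almost throughout. Of 42 such genes, all of which were tested, 39 were called lower, 2 higher and 1 was not called, with a median log2 fold change of -0.50. Over all genes tested the median was 0.00029, with 28.4% called lower. Against a 1.5-fold change, 13 were called lower and 1 higher. The list was chosen with earlier results of these data known, and MYC binding was not measured in these cells.

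By role, a grouping made after the values were seen, all 16 genes of ribosome biogenesis fell, with log2 fold changes from -1.22 (Rrp9, a component of the U3 small nucleolar ribonucleoprotein) to -0.22 (Npm1, nucleophosmin). The 5 genes of polyamine and nucleotide synthesis fell, led by Odc1, ornithine decarboxylase, which went from 129 to 54.0 CPM on average (log2 fold change -1.26, adjusted p = 2.37e-19). The 3 glycolytic genes all fell and had the lowest median of these groups, -1.21. Hk2, hexokinase 2, had the lowest value of the whole list at -1.58 (314 to 105 CPM, adjusted p = 6.26e-24), and Ldha and Pkm stood at -1.21 and -1.13. Slc7a5, a leucine transporter, fell from 490 to 210 CPM (log2 fold change -1.23, adjusted p = 4.58e-22). Cdk4 (-0.71), of which 19.7% of the exonic bases overlap Tspan31 on the other strand, and Ccnd2 (-0.59), a cyclin-dependent kinase and its D-type cyclin, also fell. The exceptions were Tfrc, the transferrin receptor for iron uptake, which rose from 154 to 248 CPM (log2 fold change 0.68, adjusted p = 2.82e-15), Tert, the telomerase subunit (0.25, adjusted p = 0.000306), and E2f1, a cell cycle transcription factor, which was not called (-0.07, adjusted p = 0.123). Odc1, Ldha, Pkm and Npm1 have near-identical copies elsewhere over 53.8% to 65.5% of their longest transcript, so that reads could be split between copies.

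The 12 genes known to be repressed by MYC proteins went both ways: 5 were called higher and 7 lower, so that all were called, against 56.4% of all genes tested, with a median of -0.47. Gadd45b, a stress-response gene (1.19), Gas1, a growth arrest gene (1.04), and Cdkn1c, the cyclin-dependent kinase inhibitor p57 (0.99), rose most. Txnip, a brake on glucose uptake known as a target of MLXIP and MLXIPL, fell from 235 to 96.2 CPM (-1.29). Ndrg2 (-1.04) and Klf6 (-0.75) had the next lowest values, and the inhibitor genes Cdkn1a (-0.48) and Cdkn2b (-0.72) fell as well. All of these passed the test, with adjusted p from 2.8e-21 (Txnip) to 7.31e-07 (Ndrg2). Genes on the opposite strand overlap 30.7% of the exonic bases of Cdkn1c, 19.9% of those of Gas1 and 19.4% of those of Txnip, and the part of antisense reads in these counts is not known.

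**Figure D4:**
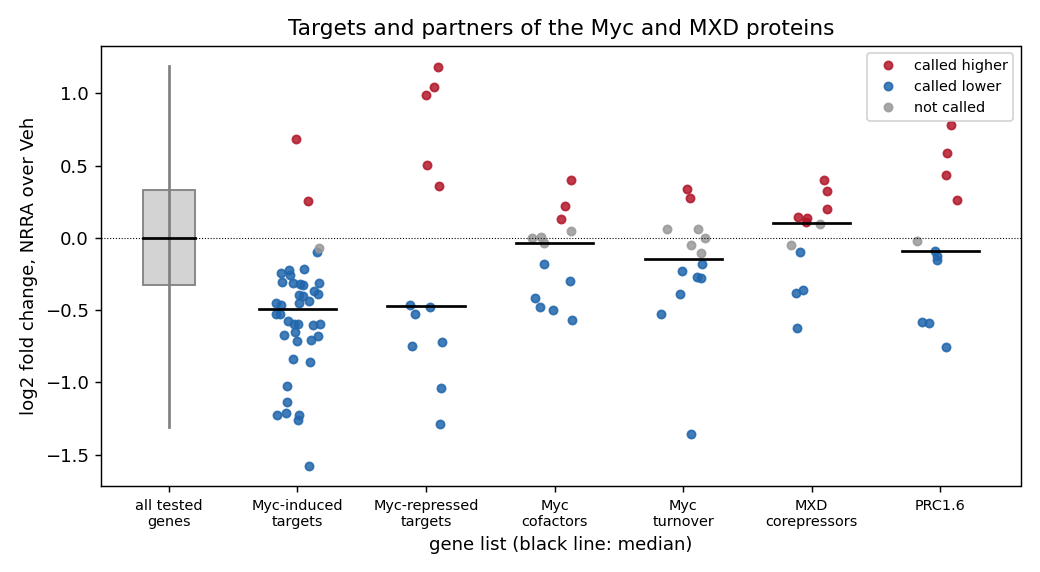
Log2 fold change of NRRA over Veh for each tested gene of 6 lists, with the black line at the list's median and colours for the call at an adjusted p under 0.05. The grey box spans the 25th to 75th and its line the 5th to 95th percentile of all 20232 genes tested. The Myc-induced targets sit below 0 other than Tfrc and Tert, and the other lists spread on both sides.

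Genes of proteins that MYC works with went both ways. Of 13 cofactor genes 6 were called lower and 3 higher (69.2% called, against 56.4% of all genes tested), with a median of -0.04, and with library size only the counts were 6 and 6. Ruvbl1 (-0.57), Ruvbl2 (-0.50) and Trrap (-0.48), all parts of the TIP60 acetyltransferase complex that MYC recruits, were lowest, whereas Kat5 (0.40), the acetyltransferase of the same complex, was highest. Zbtb17 (0.13), through which MYC represses genes, was also called higher, with an adjusted p = 0.0284. None of the 13 passed the test against 1.5-fold. Ruvbl1 has a near-identical copy over 81.7% of its longest transcript, and opposite-strand genes overlap 15.4% of the exonic bases of Ruvbl2 and 12.1% of those of Kat5.

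Of 14 genes that act on the stability of MYC proteins, 7 were called lower and 2 higher (64.3% called, against 56.4% of all genes tested), with a median of -0.14, and with library size only the counts were 7 and 5. Fbxo32 (atrogin-1), an F-box protein, fell from 31.2 to 12.1 CPM (log2 fold change -1.36, adjusted p = 1.06e-13). Ppp2r5a (-0.53), a phosphatase subunit that acts on a stabilising phosphate, came next, and has near-identical sequence in other genes over 68.8% of its longest transcript. Cip2a (0.34), an inhibitor of that phosphatase, and Fbxw7 (0.28), the ubiquitin ligase subunit that marks MYC for degradation, rose. The third highest, the deubiquitinase gene Usp28, had a value of 0.06 and was not called (adjusted p = 0.103).

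The corepressor complex through which MXD proteins act was expressed in both groups with small differences. Of its 12 genes 6 were called higher and 4 lower (83.3% called, against 56.4% of all genes tested), with a median of 0.10, and none passed the test against 1.5-fold. The scaffold gene Sin3b (0.40), Sap30 (0.33) and the deacetylase gene Hdac2 (0.20) had the highest values, and the other scaffold gene, Sin3a, was called lower at -0.10. Ing2 (-0.62), Suds3 (-0.38) and Rbbp7 (-0.36) had the lowest, with near-identical sequence elsewhere over 49.7% of the longest transcript of Rbbp7.

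The genes whose pattern over the 4 libraries was most like that of Mycn were found by the Euclidean distance of centred log2 CPM among 11318 well-expressed genes. They were Spry4 (distance 0.0727, log2 fold change -2.91), an inhibitor of receptor tyrosine kinase signalling, Jph4 (0.0904, -2.99), a junctophilin, and Ret (0.0948, -2.82), a receptor tyrosine kinase that is also among the markers of undifferentiated spermatogonia above. For Mxd4 they were Apeh (0.0191, 0.61), Adgrb2 (0.0196, 0.61) and Zzef1 (0.0226, 0.58). Over 4 libraries in 2 groups, this measure is set mainly by the size of the fold change.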

How the data were processed

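Poly(A) RNA was sequenced in 4 libraries. The authors deposited raw counts per gene, 1 column per library. The submitters' processing notes list bcl2fastq, STAR 2.6.1c, featureCounts 1.6.4 and genome build mm10. The annotation release and the strand setting are not given in the sources used here. Groups and replicate numbers came from the sample titles. Descriptions and column names give each Veh library a number higher by 1 than its title does, and columns were matched through the descriptions. The labels name a TruSeq and a NuGEN preparation, and the study's methods a stranded kit. Gene positions and lengths came from GENCODE M21 (GRCm38), in which 55240 of 55421 gene identifiers were found.

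Counts were filtered with filterByExpr, scaled by TMM and tested with edgeR 4.0.16 (R 4.3.3; robust quasi-likelihood F-test, all 4 libraries, no block) with Benjamini-Hochberg adjustment over all 20232 genes, at a threshold of 0.05. The common biological coefficient of variation was 2.61%. CPM are on TMM library sizes, and 95% intervals use the moderated degrees of freedom. Near-identical copies were sought with blastn 2.17.0 (identity of at least 95% over at least 100 bases).

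The members and gene lists were chosen with earlier results of these data known. Named were all 8 members, the Max and Mlx network, the Myc-related genes, the 3 highest and 3 lowest log2 fold changes of each list, and the 3 genes most like Mycn and Mxd4 (mean log2 CPM of at least 3). Other genes of the target lists that are named were chosen after their values were seen. Some genes that this rule names are not reported here.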

Additional observations from a re-analysis of the deposited data

How the results depend on the processing

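The 8 log2 fold changes were recomputed under 11 alternatives: DESeq2 size factors, library size only, no filter, DESeq2 1.42.0, a replicate block, no robust estimation, glmTreat against 1.5-fold, and each library left out. Mycn, Myc, Mxd1, Mxd4 and Mxi1 kept direction and call, apart from Mxd4 (0.597, adjusted p = 0.682) and Mxi1 (0.245, adjusted p = 1) under glmTreat. Mycl turned sign with library size only (0.0667). Mnt, not called in the report, was called with library size only (0.193), no filter (0.111) and the replicate block (0.102). With 1 library left out, the lone library being assumed to vary like the pair of the other group, log2 fold changes ran from -0.0492 to 0.0076 for Mycl, from 0.0569 to 0.148 for Mnt, and from -0.256 to -0.0722 for Mxd3. Under glmTreat 1382 genes were called higher and 1548 lower, against 5654 and 5752 in the main test, with 13 Myc-induced targets lower and 1 higher and 4 Myc-repressed targets lower and 3 higher. With library size only the split of all calls was 6962 higher and 4593 lower. With longest transcripts the log2 ratio of activators to repressors changed by -2.28 instead of -2.20, and by -2.23 to -2.17 with 1 library left out. Of 176 list counts 160 stayed within 1.5 times.

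Libraries with the same number in their titles (the Veh descriptions number them differently) did not deviate together (correlation 0.0293 over 11326 genes), so the numbers were not read as pairs; the replicate block gave 5772 higher and 5836 lower calls. With 2 libraries a group, differences such as those of Mnt and Mxd3 were near the limit of what could be detected.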

Other observations

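PRC1.6, the Polycomb complex that Max and Mga share, went both ways in RNA level. Of its 11 genes 6 were called lower and 4 higher (90.9% called, against 56.4% of all genes tested), with a median log2 fold change of -0.09, and DESeq2 called 4 lower and 4 higher. E2f6 (-0.76), Max (-0.59) and Pcgf6 (-0.58) had the lowest values. The ubiquitin ligase genes Ring1 (0.78) and Rnf2 (0.59) and the bridging factor Yaf2 (0.44) had the highest. Mga, the MAX partner in the complex, was not called (-0.02).

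The E-box sequence CACGTG was in a listed promoter of 10 of the 34 Myc-induced targets with an entry (29.4%), against 11.2% of the 13037 tested genes with an entry and 8.09% of all 27025 genes in the table. It was also in 3 of 10 Myc-repressed targets and 3 of 5 germ cell markers with an entry, and in 0 of 9 fibroblast feeder markers and 0 of 6 markers of undifferentiated spermatogonia. The 10 genes with it had a median log2 fold change of -0.56 and the 24 without it -0.44. Among all tested genes with an entry, 36.6% of the 1458 with CACGTG were called lower and 30.2% higher. Of the 11579 without it, 31.0% were called lower and 31.9% higher. The medians were -0.04 and 0.01, and the difference was not tested.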
